A study of Homo sapiens with 18 samples.

Results

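YEATS4, a reader of acetylated histones, is described here with 9 further genes of the TIP60 complex: KAT5, EP400, TRRAP, DMAP1, ING3, MRGBP, MORF4L1, RUVBL1 and RUVBL2. YEATS4 was taken because the study names it as a target of NRF1, and the others were added by name as subunits of the same complex. A response of YEATS4 to NRF1 is thus part of why it was chosen. The genes are 10 of 58870 genes in the deposited table, and all 10 were among the 17962 genes that passed the filter on low counts. With an siRNA against NRF1, YEATS4 RNA was 2.97-fold lower than with a control siRNA in cells given NRF1 without exon 7 and 3.09-fold lower in cells without a transgene, and it stayed higher in cells given full-length NRF1. MRGBP also differed between the lines given these isoforms. The other 8 genes differed little between them.

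TIP60 is a large nuclear complex that acetylates the tails of histones H4 and H2A. Through its ATPase EP400 it also places the histone variant H2A.Z in nucleosomes at promoters, and it acts in transcription and in the repair of DNA breaks. The transcription factor NRF1, short for nuclear respiratory factor 1, binds a GC-rich palindrome in the promoters of housekeeping genes, many of them for mitochondria.

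Polyadenylated RNA was sequenced from HEK293 Flp-In cells, an embryonic kidney line of human origin that carries an integration site for transgenes, in 6 conditions with 3 libraries each. In 3 of these the cells had siNRF1, an siRNA against NRF1: siNRF1+NRF1-DE7, siNRF1+NRF1-FL and siNRF1, the last without a transgene. The matching conditions with siNT, a non-targeting siRNA, were siNT+NRF1-DE7, siNT+NRF1-FL and siNT. NRF1-FL is the full-length protein and NRF1-DE7 is the isoform that lacks exon 7. Both transgenes were FLAG-tagged, resistant to the siRNA, inducible by doxycycline and kept in hygromycin-selected stable lines. All 18 samples are labelled as given siRNA and doxycycline, so the cells without a transgene carry both too. The sources used here do not say whether those cells were parental or held a control vector. The labels place doxycycline at 24 h after transfection, and the methods of the study give a shorter interval. The line and the isoform cannot be told apart, because each isoform was carried by 1 line.

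Library totals ran from 31.2 to 44.8 M counts, and the 10 genes had at least 644 counts in every library. Levels are given as CPM, counts scaled to library size by the TMM method, and fold changes as log2 values from edgeR. A gene is called where its log2 fold change exceeds 0.5 in either direction with a Benjamini-Hochberg adjusted p under 0.05. The labels number the replicates without saying whether they were separate cultures. The p-values therefore rest on the spread among these samples, and that spread may be technical. NRF1 itself was at 37.3, 37.9 and 39.9 CPM in siNRF1+NRF1-DE7, 49.3, 50.4 and 49.1 in siNRF1+NRF1-FL and 7.19, 9.25 and 7.70 in siNRF1. With siNT it was at 58.7, 59.0 and 57.9 CPM in siNT+NRF1-DE7, 52.4, 55.7 and 55.2 in siNT+NRF1-FL and 31.1, 29.9 and 29.3 in siNT. These values join reads of the endogenous gene and of the transgenes. NRF1 RNA was thus lowest in siNRF1 without a transgene (log2 fold change -1.92 against siNT). It was lower with NRF1-DE7 than with NRF1-FL under siNRF1, by a log2 fold change of -0.37 (edgeR adjusted p = 9.03e-07). The NRF1-DE7 transcript is shorter by exon 7, so counts of the gene can differ at equal numbers of molecules. The part of this in the difference was not tested.

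Genes used as markers of several cell types moved with the conditions, in libraries that are all of HEK293 Flp-In cells. The summed level of 7 fibroblast and smooth muscle markers was 81.4 to 85.8, 72.5 to 77.5 and 72.0 to 75.4 CPM in siNRF1+NRF1-DE7, siNRF1+NRF1-FL and siNRF1, against 28.4 to 32.02, 32.04 to 33.0 and 29.7 to 31.5 CPM in the siNT conditions of the same lines. That of 6 epithelial markers was 459 to 469, 434 to 449.6 and 424 to 430.2 CPM in siNRF1+NRF1-DE7, siNRF1+NRF1-FL and siNRF1, against 711 to 732, 619 to 637 and 591 to 621 CPM in the siNT conditions of the same lines. That of 6 neuronal markers was 274 to 284, 331 to 347 and 320.2 to 333 CPM in siNRF1+NRF1-DE7, siNRF1+NRF1-FL and siNRF1, against 286 to 297, 330.0 to 352 and 331 to 349.6 CPM in the siNT conditions of the same lines, lower in the NRF1-DE7 line under either siRNA. The sums hide members that moved apart, named here after their values were seen. Of the fibroblast and smooth muscle list ACTA2 and TAGLN were called higher with the siRNA in each line, and COL3A1 was called lower in the NRF1-FL line and without a transgene. These COL3A1 values, -0.96 and -0.95 on the log2 scale, had wide SEs of 0.361 and 0.367. Of the epithelial list KRT8 and KRT18 were called lower in each line, but CDH1 was called higher, at 0.76 in the NRF1-DE7 line, 0.82 in the NRF1-FL line and 1.05 without a transgene on the log2 scale. KRT19 was called lower in the NRF1-DE7 and NRF1-FL lines. KRT5 was called higher without a transgene, at 8.59 with a wide SE of 1.87. It was not called in the NRF1-DE7 and NRF1-FL lines (SE 1.58 and 4.51). Of the neuronal list TUBB3 and SNAP25 were called higher in each line, whereas NEFM was called lower in the NRF1-DE7 line, at -0.82. NEFL was lower by adjusted p but under the fold threshold, at -0.23 in the NRF1-DE7 line, -0.20 in the NRF1-FL line and -0.11 without a transgene. The neuronal list also moved apart between NRF1-DE7 and NRF1-FL. INA was at -0.49 under siNRF1 and -0.29 under siNT, and NEFL at -0.30 and -0.26. In the other direction, NEFM was called higher with NRF1-DE7 under siNT, at 0.68. TUBB3 was higher under siNRF1 by adjusted p, at 0.18. No marker of these 3 lists was at 0 in every library. Markers of blood, endothelium and liver summed to under 1 CPM in every library. The part of these shifts in the levels below was not tested. In bulk RNA, fewer cells with a marker and less of its RNA per cell cannot be told apart.

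The promoters are shown because NRF1 is the factor that was depleted and replaced, and because the members differ in whether they hold its motif. RefSeq promoter windows (GRCh38.p14, hg38), from 250 bases before to 50 after each gene's start, were found for 8 of the 10 members, all but TRRAP and ING3. The core of the NRF1 motif was searched as GCGCANGCG on both strands, where N is any base. It occurred 2 times in YEATS4, 2 times in MRGBP and 1 time in MORF4L1, and had no match in the windows of KAT5, EP400, DMAP1, RUVBL1 and RUVBL2. Of all 35116 promoter windows 7.52% hold it. The stretches around the cores, all on the plus strand, are printed 5′ to 3′ with the core matches in capitals. They are chr12:69359658-69359739 for YEATS4, chr20:62796374-62796472 for MRGBP and chr15:78872798-78872836 for MORF4L1.
YEATS4: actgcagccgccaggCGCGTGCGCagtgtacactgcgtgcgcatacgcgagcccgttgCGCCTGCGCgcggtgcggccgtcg
MRGBP: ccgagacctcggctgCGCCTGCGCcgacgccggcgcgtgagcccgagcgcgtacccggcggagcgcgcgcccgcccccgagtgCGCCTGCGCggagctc
MORF4L1: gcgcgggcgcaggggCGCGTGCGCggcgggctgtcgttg

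In YEATS4 the cores lay at -70 to -62 and at -27 to -19 from the RefSeq start, and in MRGBP at -84 to -76 and -16 to -8. Both genes thus hold a pair of cores shortly before the start, whereas MORF4L1 holds a lone core at -77 to -69. A pair is not particular to these members. ZNHIT1, TADA2B, TAF12 and SUPT3H, of related complexes and named after their values were seen, also have 2 matches to the core. Those of ZNHIT1 and TADA2B are separate. The matches of TAF12, at -100 to -92 and -95 to -87, overlap on opposite strands. So do those of SUPT3H, at -121 to -113 and -120 to -112. None of these genes was called between the isoforms under siNRF1, at log2 fold changes of 0.05, -0.21, 0.13 and -0.28 in the order first named. POMT1, chosen below for its likeness to YEATS4, holds 2 as well. The GENCODE model of YEATS4 starts further upstream than the RefSeq one, so that its core nearest the start falls in the first exon of that model. The RefSeq start of MORF4L1 lies inside the GENCODE gene. YEATS4 also holds the shorter motif TGCGCA 2 times, at -66 to -61, where it overlaps the first core, and at -48 to -43. That shorter motif, which reads the same on both strands, is in 8.24% of promoters and in no other of the 8 windows. A match of letters is a description and not a bound site. For the YEATS4 promoter the study reports less binding of NRF1-DE7 than of NRF1-FL, measured by chromatin immunoprecipitation and qPCR. Binding was not analysed here.

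Other motifs were held by the members that lack the NRF1 core. The ETS motif CCGGAAG, in 10.3% of promoters, occurred 2 times in KAT5, 2 times in DMAP1 and 1 time in EP400. The CCAAT box, searched as CCAAT and in 34.6% of promoters, occurred 1 time each in DMAP1, RUVBL1 and RUVBL2. The E-box CACGTG (7.26% of promoters) and the YY1 motif AAGATGGCG (1.75%) each occurred 1 time in KAT5. All were searched on both strands.

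**Figure D1:**
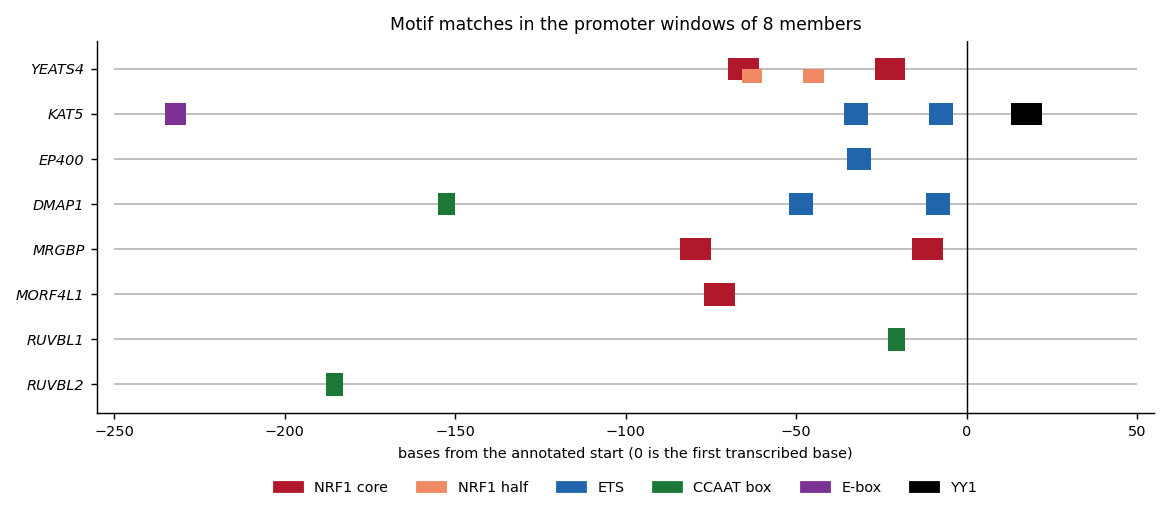
Motif matches in the RefSeq promoter windows of 8 members, with the distance in bases from the annotated start on the horizontal axis and colours for the motifs. YEATS4 and MRGBP each hold 2 NRF1 cores and MORF4L1 holds 1, while the windows of the other 5 members hold none.

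The siRNA is shown because all siNRF1 conditions carry it, and its seed can pair with other RNAs. Its sense strand matches chr7:129677681-129677699 on the plus strand of hg38, in the coding part of exon 4 of the 11 exons of NRF1. The guide is the reverse complement of the sense strand, with bases 2 to 8, the seed, in capitals.
sense strand: gcuauuguccucuguaucu
guide: aGAUACAGaggacaauagc
The RNA match to this seed, CUGUAUC, was in none of the annotated 3′ UTRs of the 10 members. Of 19550 genes with a 3′ UTR 9.69% hold it.

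YEATS4, also known as GAS41, binds acetylated or crotonylated histone H3 through its YEATS domain and is shared by the TIP60 and SRCAP complexes. Its gene has 7 exons in the canonical transcript and lies at chr12:69359710-69390870 on the plus strand (hg38). Under siNRF1, YEATS4 was at 20.2, 20.9 and 19.4 CPM with NRF1-DE7, 55.7, 52.7 and 51.9 CPM with NRF1-FL and 21.2, 19.1 and 21.6 CPM without a transgene. Under siNT it was at 61.7, 58.2 and 59.4 CPM with NRF1-DE7, 63.9, 67.5 and 61.7 CPM with NRF1-FL and 63.7, 63.8 and 64.3 CPM without a transgene. The libraries of siNRF1+NRF1-DE7 and of siNRF1 overlapped and lay far below all others, and those of siNRF1+NRF1-FL lay between them and the siNT libraries without overlap. As a share of the siNT mean, the means were 31.5% in siNRF1+NRF1-DE7, 83.5% in siNRF1+NRF1-FL, 32.2% in siNRF1, 93.5% in siNT+NRF1-DE7 and 101% in siNT+NRF1-FL.

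The siRNA lowered YEATS4 strongly in the cells that lacked full-length transgenic NRF1. In the NRF1-DE7 line the means were 20.2 ± 0.779 CPM with siNRF1 and 59.8 ± 1.75 CPM with siNT (SD, n = 3 each), a log2 fold change of -1.57 (SE 0.0457, edgeR adjusted p = 9.60e-19). Without a transgene they were 20.6 ± 1.34 CPM with siNRF1 and 63.9 ± 0.339 CPM with siNT, a log2 fold change of -1.63 (SE 0.0462, edgeR adjusted p = 7.89e-19), which is 3.09-fold lower. In the NRF1-FL line they were 53.4 ± 1.98 CPM with siNRF1 and 64.4 ± 2.92 CPM with siNT. That difference, at -0.27 on the log2 scale (edgeR adjusted p = 5.01e-06), passed the adjusted p but not the fold threshold. The response in the NRF1-FL line minus that without a transgene was 1.36 (SE 0.0622, edgeR adjusted p = 5.02e-13). For the NRF1-DE7 line the same difference was 0.06, with a 95% interval of -0.08 to 0.20 (edgeR adjusted p = 0.723).

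Between the isoforms, YEATS4 was 2.65-fold lower with NRF1-DE7 than with NRF1-FL under siNRF1, a log2 fold change of -1.41 with a 95% interval of -1.51 to -1.31 (edgeR adjusted p = 2.39e-16). This was rank 142 from the lowest among the 17962 genes tested. Under siNT the difference was -0.11, with an interval of -0.20 to -0.02, and did not pass (edgeR adjusted p = 0.0853). The isoform by siRNA interaction, the difference of these differences, was -1.30 (SE 0.0617, edgeR adjusted p = 7.54e-13). NRF1 RNA was also lower with NRF1-DE7 than with NRF1-FL under siNRF1, as given above, and the part of that difference in the YEATS4 level was not tested. Of the 3 libraries with NRF1-DE7 all 3 lay below every library with NRF1-FL.

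Against siNRF1 alone, YEATS4 was 2.58-fold higher in the line with NRF1-FL (log2 fold change 1.37, edgeR adjusted p = 6.84e-16). With NRF1-DE7 the log2 fold change against siNRF1 alone was -0.04, and its 95% interval ran from -0.15 to 0.07 (edgeR adjusted p = 0.667). With siNT YEATS4 passed the test in neither transgenic line, at -0.10 for NRF1-DE7 (edgeR adjusted p = 0.118) and 0.01 for NRF1-FL (edgeR adjusted p = 0.934), both against siNT alone. The comparisons with siNRF1 alone share its 3 libraries.

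**Figure D2:**
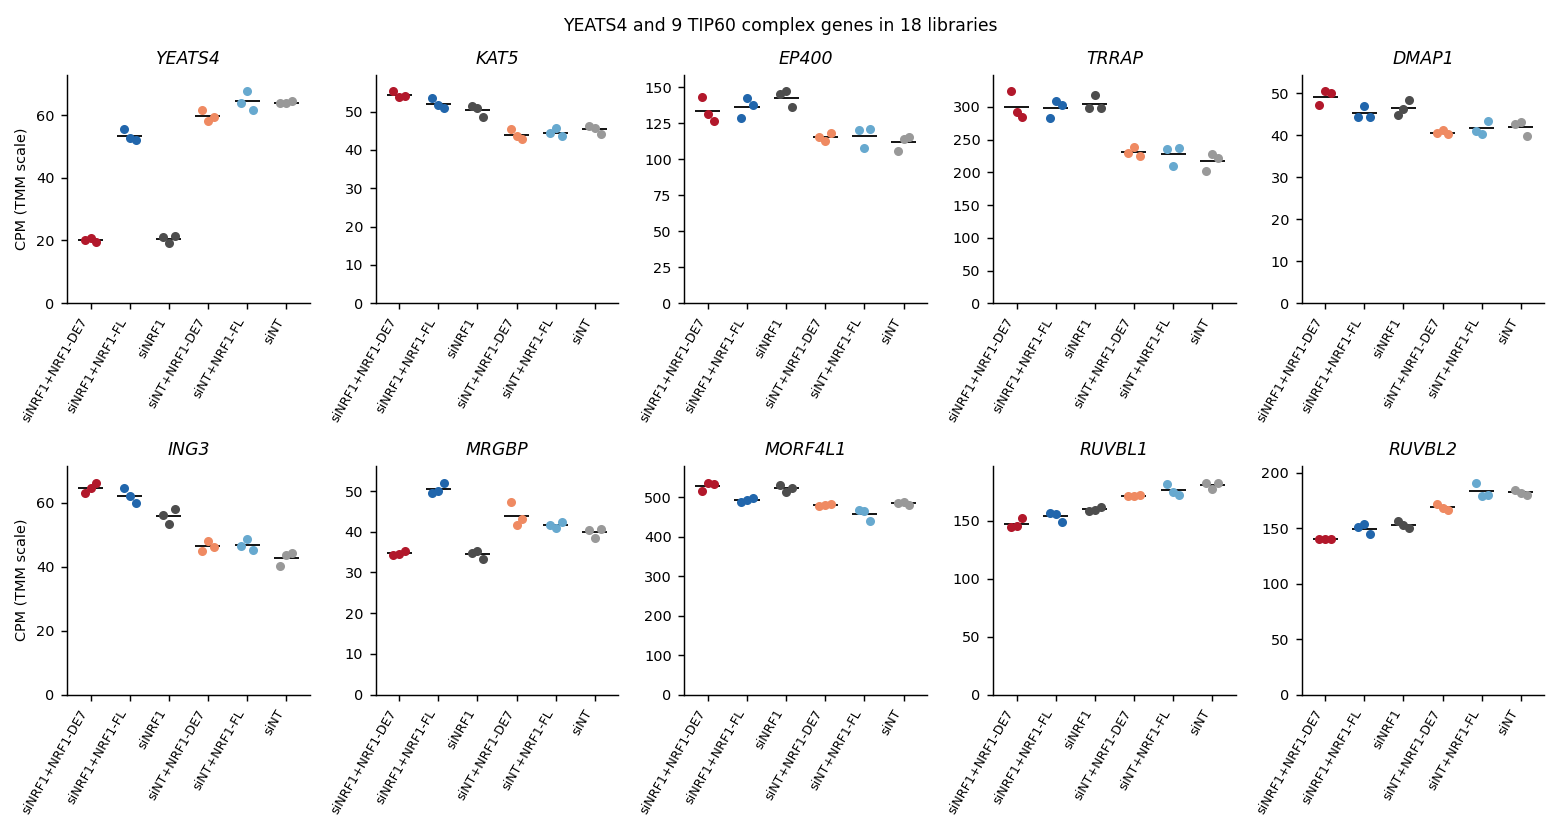
Level of each of the 10 genes in CPM (TMM scale, linear axes from 0) in the 6 conditions, with 1 point per library and a bar at the mean of 3. YEATS4 lies near 20 CPM in siNRF1+NRF1-DE7 and siNRF1 and above 50 CPM in the other 4 conditions, and MRGBP is highest in siNRF1+NRF1-FL.

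MRGBP encodes a small subunit that binds MORF4L1 and links it to the complex. The gene has 5 exons and lies at chr20:62796473-62801729 on the plus strand. Under siNRF1 it was at 34.4, 34.5 and 35.3 CPM with NRF1-DE7, 49.5, 49.99 and 52.0 CPM with NRF1-FL and 34.7, 35.3 and 33.4 CPM without a transgene. Under siNT it was at 47.3, 41.6 and 43.0 CPM with NRF1-DE7, 41.8, 40.9 and 42.5 CPM with NRF1-FL and 40.5, 38.5 and 40.6 CPM without a transgene. The siNRF1+NRF1-FL libraries were above all others, and those of siNRF1+NRF1-DE7 and siNRF1 overlapped below all siNT libraries.

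MRGBP was lower with NRF1-DE7 than with NRF1-FL under siNRF1, at 34.7 ± 0.514 CPM against 50.5 ± 1.34 CPM (SD, n = 3 each), a log2 fold change of -0.54 with a 95% interval of -0.63 to -0.45 (edgeR adjusted p = 6.49e-10). This was rank 1026 from the lowest. Under siNT the difference was 0.07 (edgeR adjusted p = 0.273), and the interaction was -0.61 (SE 0.0589, edgeR adjusted p = 1.01e-07). MRGBP differed from YEATS4 in its response to the siRNA. The log2 fold change of siNRF1 over siNT was -0.34 in the NRF1-DE7 line and -0.21 without a transgene (edgeR adjusted p = 1.92e-07 and 1.56e-04), but 0.27 in the NRF1-FL line (edgeR adjusted p = 3.61e-06), all under the fold threshold. Against siNRF1 alone it was 0.55 with NRF1-FL (edgeR adjusted p = 7.09e-10) and 0.01 with NRF1-DE7 (95% interval -0.08 to 0.11, edgeR adjusted p = 0.881). The gene shares 16.5% of its exon bases with the antisense gene OGFR-AS1, which reached at most 0.0891 CPM in every library.

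KAT5 is the acetyltransferase of the complex. Its libraries were at 55.3, 53.8 and 54.0 CPM in siNRF1+NRF1-DE7, 53.6, 51.8 and 50.9 CPM in siNRF1+NRF1-FL and 51.6, 50.9 and 48.5 CPM in siNRF1. They were at 45.5, 43.6 and 42.9 CPM in siNT+NRF1-DE7, 44.3, 45.7 and 43.6 CPM in siNT+NRF1-FL and 46.2, 45.9 and 44.2 CPM in siNT. All siNRF1 libraries were above all siNT libraries, by a log2 fold change of 0.30 in the NRF1-DE7 line, 0.23 in the NRF1-FL line and 0.15 without a transgene (largest edgeR adjusted p = 9.43e-04). Between NRF1-DE7 and NRF1-FL under siNRF1 it was 0.06 (edgeR adjusted p = 0.193). KAT5 shares 38.6% of its exon bases with RNASEH2C on the opposite strand. The libraries came from a kit that keeps the strand, but the sources used here give no strand setting for the counting, so it is not known whether reads of these 2 genes were told apart. RNASEH2C, an RNase H2 subunit, had log2 fold changes of -0.57, -0.53 and -0.56 with the siRNA in the NRF1-DE7 line, the NRF1-FL line and without a transgene, which is the opposite direction.

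EP400 and TRRAP are the large scaffold subunits. EP400 is the ATPase that exchanges H2A.Z, and TRRAP, a kinase-like protein without kinase activity, binds activators and is shared with the SAGA complex. EP400 ranged from 126 to 143 CPM in siNRF1+NRF1-DE7, 128 to 142 CPM in siNRF1+NRF1-FL and 136 to 147 CPM in siNRF1, against 113 to 118, 108 to 121 and 106 to 115 CPM in the siNT libraries of the same lines. TRRAP ranged from 284 to 324, 283 to 309 and 298 to 318 CPM with siNRF1 in the same order, against 226 to 239, 209.9 to 237 and 203 to 228 CPM with siNT. Both genes were higher in every siNRF1 library than in any siNT library. The log2 fold changes for TRRAP were 0.37 in the NRF1-DE7 line, 0.39 in the NRF1-FL line and 0.49 without a transgene (largest edgeR adjusted p = 7.49e-07), and for EP400 0.21, 0.23 and 0.35 (largest edgeR adjusted p = 7.59e-04). TRRAP without a transgene lay just under the fold threshold. Without siNRF1 replicate 1 or 3, or without siNT replicate 2 or 3, it lay just over it, at 0.50 to 0.52. Between the isoforms under siNRF1, EP400 was at -0.03 and TRRAP at 0.01 (edgeR adjusted p = 0.717 and 0.917). Reads of EP400 can also fall on its pseudogene EP400P1, whose counts came to 16.8% of those of EP400.

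DMAP1 and ING3 are accessory subunits, and ING3 reads methylated histone H3 through a PHD finger. DMAP1, which is shared with the SRCAP complex, was at 47.3, 50.4 and 49.95 CPM in siNRF1+NRF1-DE7, 44.3, 46.9 and 44.4 CPM in siNRF1+NRF1-FL and 44.9, 46.2 and 48.4 CPM in siNRF1, against 40.2 to 41.3, 40.3 to 43.5 and 39.9 to 43.2 CPM with siNT in the same order. ING3 was at 63.0, 64.5 and 66.2 CPM in siNRF1+NRF1-DE7, 64.5, 62.0 and 59.8 CPM in siNRF1+NRF1-FL and 56.1, 53.3 and 57.9 CPM in siNRF1, against 44.9 to 48.1, 45.4 to 48.8 and 40.3 to 44.4 CPM with siNT. Both were higher in each siNRF1 group than in the siNT group of the same line, with no overlap. For ING3 the log2 fold changes were 0.48 in the NRF1-DE7 line, 0.41 in the NRF1-FL line and 0.38 without a transgene, none past the fold threshold (largest edgeR adjusted p = 5.36e-08). Without siNT+NRF1-DE7 replicate 2 the value in the NRF1-DE7 line was 0.50 and the gene was called. For DMAP1 they were 0.28, 0.12 and 0.15 (largest edgeR adjusted p = 0.0155). ING3 was also higher with either transgene than with siNRF1 alone, by 0.21 for NRF1-DE7 and 0.15 for NRF1-FL (edgeR adjusted p = 6.91e-04 and 0.00935), both under the fold threshold. DMAP1 differed by 0.12 between NRF1-DE7 and NRF1-FL under siNRF1 (edgeR adjusted p = 0.0253).

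MORF4L1, also known as MRG15, reads methylated histone H3 through a chromodomain. It was at 516, 537 and 534 CPM in siNRF1+NRF1-DE7, 487, 492 and 498 CPM in siNRF1+NRF1-FL and 531, 513 and 523 CPM in siNRF1. It was at 478, 481 and 482 CPM in siNT+NRF1-DE7, 469, 465 and 440.3 CPM in siNT+NRF1-FL and 486, 487 and 481 CPM in siNT. The siNRF1 libraries were the higher ones in each line, by log2 fold changes of 0.14, 0.11 and 0.11 (largest edgeR adjusted p = 9.38e-04). MORF4L1 was 0.10 higher on the log2 scale with NRF1-DE7 than with NRF1-FL under siNRF1 (edgeR adjusted p = 0.00307) and 0.07 under siNT (edgeR adjusted p = 0.0717), with an interaction of 0.03 (edgeR adjusted p = 0.679). Its promoter window holds an NRF1 core, and its direction with the siRNA was opposite to that of YEATS4. Counts on its processed copy MORF4L1P1 came to 5.76% of its own.

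RUVBL1 and RUVBL2 are AAA+ ATPases that form a shared ring and also serve the INO80 and SRCAP complexes and the R2TP chaperone. RUVBL1 was at 144, 146 and 152 CPM in siNRF1+NRF1-DE7, 157, 156 and 149 CPM in siNRF1+NRF1-FL and 159, 159 and 162 CPM in siNRF1, against 171 to 172, 172 to 182 and 177 to 183 CPM with siNT in the same order. RUVBL2 was at 140.2, 140.0 and 141 CPM in siNRF1+NRF1-DE7, 151, 154 and 144 CPM in siNRF1+NRF1-FL and 157, 153 and 150.0 CPM in siNRF1, against 167 to 172, 179 to 191 and 180.0 to 185 CPM with siNT. Every siNRF1 library was below every siNT library for both genes, and none of these differences reached the fold threshold. The log2 fold changes of RUVBL2 were -0.27, -0.29 and -0.25 in the NRF1-DE7 line, the NRF1-FL line and without a transgene, and those of RUVBL1 -0.22, -0.20 and -0.18 (largest edgeR adjusted p = 8.25e-06). Between NRF1-DE7 and NRF1-FL, RUVBL2 was at -0.09 under siNRF1 and -0.12 with siNT (edgeR adjusted p = 0.0180 and 0.00802), with an interaction of 0.02 (edgeR adjusted p = 0.835). RUVBL1 shares 8.89% of its exon bases with SEC61A1 and 4.9% with EEFSEC, both on the opposite strand.

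Across the members, most differences with the siRNA were small. That of YEATS4 was the largest in the NRF1-DE7 line and without a transgene, whereas in the NRF1-FL line ING3, TRRAP, RUVBL2 and MRGBP differed by more than YEATS4. In each of the 3 siRNA comparisons all 10 passed the adjusted p, with no overlap between the siNRF1 and siNT libraries. Of all genes tested 70.9% in the NRF1-DE7 line, 67% in the NRF1-FL line and 67.6% without a transgene likewise did not overlap. In the NRF1-DE7 line 6 were higher and 4 lower by adjusted p alone, beside 34.5% and 33.6% of all genes tested. With NRF1-FL 7 were higher and 3 lower, beside 32.2% and 31.3% of all genes. Without a transgene 6 were higher and 4 lower, beside 32.1% and 32.4%. So 6 members were higher and 3 lower in all 3, and MRGBP was the 1 whose direction differed. The TMM scaling factors also split by siRNA, from 1.04 to 1.07 in the siNRF1 libraries and from 0.944 to 0.957 in the siNT libraries. Small differences, and the lack of overlap, can thus depend on the scaling. With upper-quartile scaling TRRAP without a transgene was at 0.57.

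With the fold threshold added, few members were called. In the NRF1-DE7 line 0 were called higher and 1 lower, YEATS4, beside 16% and 16.8% of all genes. In the NRF1-FL line 0 were called in either direction, beside 13.1% higher and 14% lower of all genes, although all 10 passed the edgeR adjusted p alone. Without a transgene 0 were called higher and 1 lower, again YEATS4, beside 13.7% and 15.2%. The median log2 fold change of the 10 was 0.17 in the NRF1-DE7 line, 0.17 in the NRF1-FL line and 0.13 without a transgene, beside 0.02, 0.02 and 0.01 over all genes tested.

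Between the isoforms under siNRF1, 0 members were called higher and 2 lower, YEATS4 and MRGBP, beside 2.11% and 4.1% of all genes tested. By adjusted p alone 2 were higher and 3 lower, beside 13.9% and 17.8%. The libraries of 6 members did not overlap between these groups and those of 4 did, beside 41.6% of all genes that did not. The median over the 10 was -0.01, and 0.00 over all genes. Under siNT 0 members were called, beside 1.05% higher and 1.16% lower of all genes, and 1 passed the edgeR adjusted p alone, RUVBL2, beside 15.5% of all genes in either direction. The interaction was called for 0 members upward and for 2 downward, YEATS4 and MRGBP, beside 0.317% and 1.92% of all genes. By its edgeR adjusted p alone 7.19% of all genes passed, and none of the other 8 members did, the nearest being DMAP1 at 0.16 (edgeR adjusted p = 0.120).

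Against siNRF1 alone, 2 members were called higher with NRF1-FL, YEATS4 and MRGBP, and 0 lower, beside 3.69% and 1.11% of all genes. With NRF1-DE7, 0 were called in either direction, beside 1.31% and 1.05%, and 4 passed the edgeR adjusted p alone (ING3 and KAT5 higher, RUVBL1 and RUVBL2 lower), beside 9.59% of all genes higher and 11.8% lower by that rule. With siNT, 0 members were called for NRF1-FL, beside 0.779% and 0.457%, and 0 for NRF1-DE7, beside 1.29% and 0.93%, with 1 and 2 passing the edgeR adjusted p alone, beside 8.14% and 16.3% of all genes. In the siRNA response of the NRF1-FL line minus that without a transgene, 1 member was called higher, YEATS4, beside 1.75% of all genes, and 0 lower, beside 0.15%. MRGBP, at 0.49 (edgeR adjusted p = 4.93e-06), lay just under the fold threshold and passed it without siNT replicate 2 (0.51) or siNT+NRF1-FL replicate 3 (0.50). For the NRF1-DE7 line 0 members were called, beside 0.0668% higher and 0.0891% lower of all genes, and 0 passed the edgeR adjusted p alone, beside 2.03%. At an unadjusted p under 0.05 there were 3 of the 10 for that response, beside 15.6% of all genes, and 3 for the isoforms under siNT, beside 27.7%. With siNT against siNT alone there were 2 for NRF1-FL, beside 20.9%, and 5 for NRF1-DE7, beside 28.4%. For NRF1-DE7 against siNRF1 alone there were 4, beside 32.6%. DESeq2 called as many members as edgeR in each of these comparisons. Outside the siRNA comparisons the largest absolute log2 fold change of the other 8 members was 0.21, that of ING3 with NRF1-DE7 against siNRF1 alone.

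**Figure D3:**
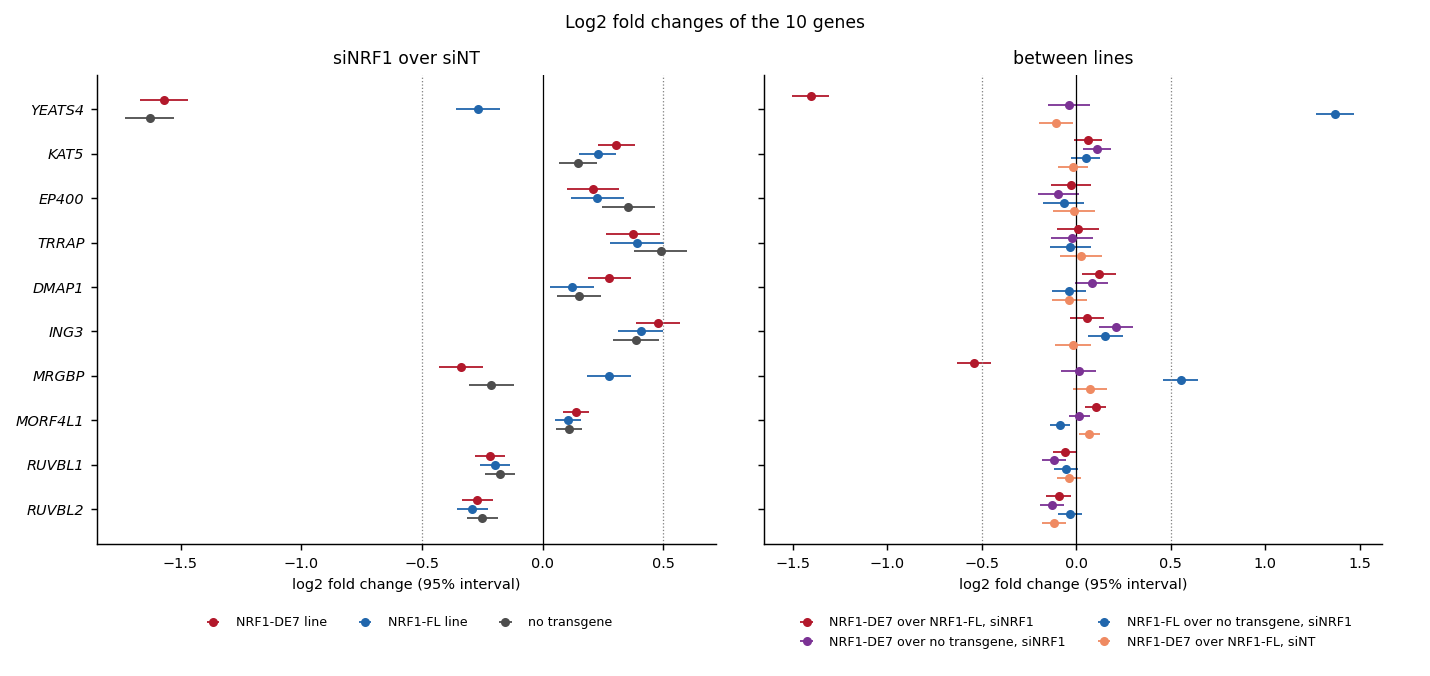
Log2 fold changes of the 10 genes with 95% intervals, for siNRF1 over siNT in the 3 lines (left) and between lines (right), with dotted lines at the fold threshold of 0.5 either way. YEATS4 at -1.41 and MRGBP at -0.54 stand below the other 8 for NRF1-DE7 over NRF1-FL under siNRF1.

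**Figure D4:**
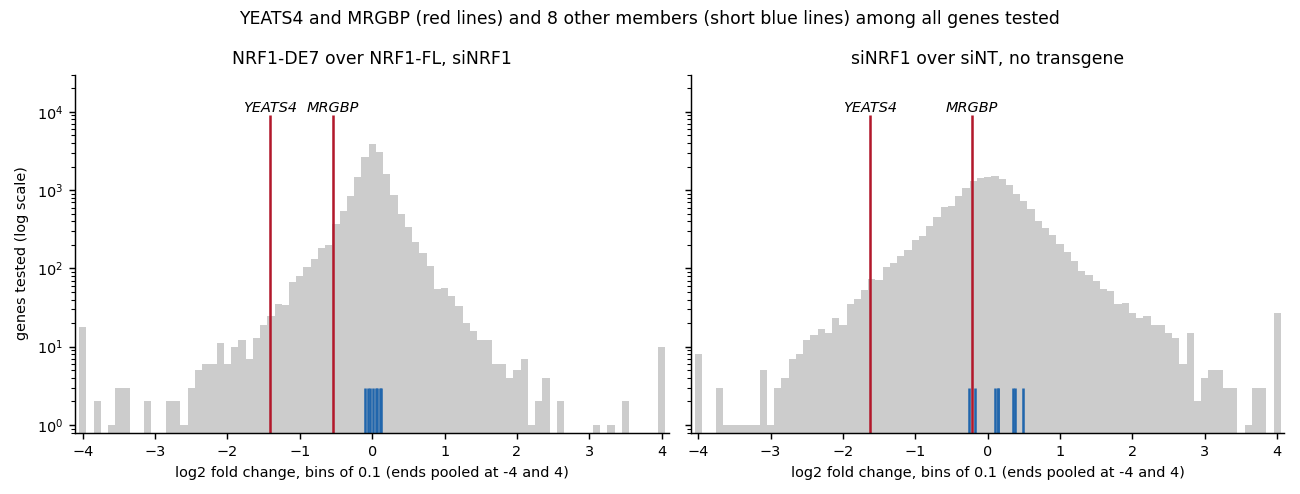
Log2 fold changes of all 17962 genes tested, as a histogram with a log count axis, for NRF1-DE7 over NRF1-FL under siNRF1 (left) and siNRF1 over siNT without a transgene (right). The red lines mark YEATS4 (-1.41 left, -1.63 right) and MRGBP (-0.54 left, -0.21 right), and the short blue lines mark the other 8 members.

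The levels of YEATS4 and MRGBP were also set against the rest of the complex. Each library's CPM was divided by the geometric mean CPM of the 8 members other than YEATS4 and MRGBP, which averaged 129 in siNRF1+NRF1-DE7, 127 in siNRF1+NRF1-FL, 128 in siNRF1, 115 in siNT+NRF1-DE7, 117 in siNT+NRF1-FL and 115 in siNT. The ratio of YEATS4 was 0.157 ± 0.00606 in siNRF1+NRF1-DE7, 0.421 ± 0.0178 in siNRF1+NRF1-FL and 0.161 ± 0.0107 in siNRF1 (SD, n = 3 each). In the siNT conditions it was 0.519 ± 0.0162 with NRF1-DE7, 0.553 ± 0.0320 with NRF1-FL and 0.554 ± 0.00844 without a transgene. The ratio of MRGBP was 0.270 ± 0.00512 in siNRF1+NRF1-DE7, 0.398 ± 0.0153 in siNRF1+NRF1-FL and 0.269 ± 0.00662 in siNRF1, and with siNT 0.382 ± 0.0262, 0.358 ± 0.00655 and 0.345 ± 0.0148 in the same order. Both ratios were lowest in siNRF1+NRF1-DE7 and siNRF1, whose libraries overlapped.

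**Figure D5:**
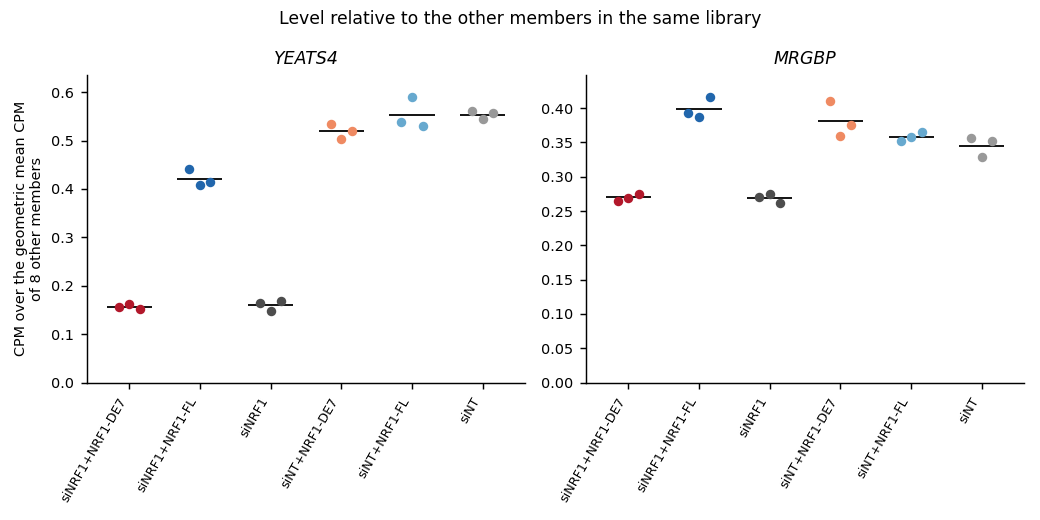
CPM of YEATS4 (left) and MRGBP (right) divided by the geometric mean CPM of the 8 other members in the same library, 1 point per library with a bar at the mean of 3. YEATS4 averages 0.157 in siNRF1+NRF1-DE7, 0.421 in siNRF1+NRF1-FL and 0.554 in siNT, and MRGBP averages 0.270, 0.398 and 0.345 in these conditions.

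Levels of different members can be compared only per length of transcript. In siNT, per kilobase of the canonical GENCODE transcript, MORF4L1 had the highest level at 223 CPM per kb, followed by RUVBL2 at 118, RUVBL1 at 95.2 and YEATS4 at 43.6. DMAP1 was at 24.1, KAT5 at 21.8, TRRAP at 17.2, MRGBP at 14.5, ING3 at 11.4 and EP400 at 9.09 CPM per kb. The order depends on which transcript is used. Over all exons of a gene joined, YEATS4 ranked 3, RUVBL1 ranked 4, MRGBP ranked 5 and DMAP1 ranked 9. Within conditions the libraries spread little, with a coefficient of variation from 0.530% to 6.50% for YEATS4 and from 1.48% to 6.77% for MRGBP. The means of the 6 conditions differed 3.19-fold between the highest and the lowest for YEATS4, 1.47-fold for MRGBP, and from 1.15-fold for MORF4L1 to 1.51-fold for ING3 among the rest.

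Other subunits and related complexes were compared with the same test, and their counts stand beside the shares of all genes called. With the siRNA these shares were 13.1% to 16% higher and 14% to 16.8% lower over the lines. Between the isoforms under siNRF1 they were 2.11% higher and 4.1% lower, and for the interaction 0.317% and 1.92%. In lists this small, none called lies near the shares for the isoforms and the interaction and is no result about a list. Among 9 other TIP60 subunits none was called between the isoforms under siNRF1 or for the interaction. With the siRNA 1 was called lower in each line, and 1 higher in the NRF1-DE7 and NRF1-FL lines but 0 without a transgene. These are named after their values were seen. MORF4L2, the close relative of MORF4L1, had log2 fold changes of -2.12 in the NRF1-DE7 line, -1.996 in the NRF1-FL line and -2.01 without a transgene, with 86.9 CPM in siNRF1+NRF1-DE7, against 379 CPM in siNT+NRF1-DE7. Its 3′ UTR holds 1 match to the siRNA seed, and the part of that match was not tested. BRD8, a bromodomain subunit, was at 0.71, 0.59 and 0.50 in the same order, the last just under the fold threshold.

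Complexes that share members with TIP60 were counted in the same way. Of 4 SRCAP complex genes, which deposit H2A.Z with YEATS4 and DMAP1, none was called in any of the 3 siRNA comparisons or between the isoforms. Of the 2 genes for H2A.Z itself, H2AZ1, listed as H2AFZ, was called lower with the siRNA in every line, at -0.92 in the NRF1-DE7 line, -0.98 in the NRF1-FL line and -0.88 without a transgene. It was named after its values were seen, and its 3′ UTR holds 1 seed match too. In the other lists, SUPT3H, YY1, MLLT3 and TADA1 hold a match and were lower without a transgene by adjusted p. KAT6B, INO80D, CPM, ING5 and ATXN7L3 hold a match as well and were higher by the same rule. These genes were also named after their values were seen, and the part of the matches was not tested. Of 3 other YEATS domain genes none was called. Of 12 INO80 complex genes 1 was called higher and 1 lower with the siRNA in each line. INO80C was the only gene of these lists that was called between the isoforms under siNRF1. It was higher with NRF1-DE7, at 38.7 ± 2.25 CPM, than with NRF1-FL, at 25.1 ± 1.45 CPM, and it was at 37.7 ± 0.967 CPM in siNRF1. With siNT it was at 14.7, 12.8 and 14.8 CPM in the same order. The log2 fold change between the isoforms was 0.62 (SE 0.0485, edgeR adjusted p = 8.59e-10), and the interaction of 0.42 was under the fold threshold (edgeR adjusted p = 6.62e-04).

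Further lists were described by their counts in the NRF1-DE7 line, the NRF1-FL line and without a transgene. The 18 SAGA genes belong to a complex that shares TRRAP. Of these 1, 1 and 2 were called higher with the siRNA and 3, 2 and 3 lower, among 19 rows of the table, since 1 symbol has 2 rows. That symbol is ATXN7, named after its values were seen. Without a transgene its 2 rows were called in opposite directions, at -1.12 and 0.53 on the log2 scale, so it counts both as lower and as higher. Of 12 genes of the HBO1 and MOZ/MORF acetyltransferase complexes 2, 1 and 2 were called higher and 1, 0 and 0 lower. Of 5 genes of the R2TP and TTT chaperones, which assemble RUVBL1, RUVBL2 and TRRAP into complexes, 0 were called higher and 2, 2 and 1 lower. None of these was called between the isoforms under siNRF1. Of the 5 tested neighbours of YEATS4 on chromosome 12, none was called between the isoforms and 1, MDM2, named after its values were seen, was called higher with the siRNA in each line, the opposite direction from YEATS4.

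Across all 14453 genes tested with a mean of at least 1 CPM, the genes whose log2 CPM over the 18 libraries was most like that of YEATS4 were RAB23, BBS2, PTPN3, RPS6KB1, POMT1 and BPNT1, with Pearson r of 0.997, 0.996, 0.995, 0.994, 0.993 and 0.993. The points share the 18 libraries and fall into the clusters of the 6 conditions, so these r values describe likeness of pattern and carry no test. They encode a small GTPase of cilia, a BBSome subunit, a tyrosine phosphatase, an S6 kinase, an O-mannosyltransferase and a bisphosphate nucleotidase, in this order. RAB23 averaged 25.3 CPM in siNRF1+NRF1-DE7, 57.9 CPM in siNRF1+NRF1-FL and 25.1 CPM in siNRF1. With siNT it averaged 61.3 CPM with NRF1-DE7, 63.2 CPM with NRF1-FL and 61.0 CPM without a transgene, so that like YEATS4 it was lowest in siNRF1+NRF1-DE7 and siNRF1. In their promoter windows the NRF1 core occurred 2 times in POMT1 and had no match in RAB23, BBS2, PTPN3 and RPS6KB1, while the shorter motif was in RAB23, BBS2, RPS6KB1 and POMT1. BPNT1 had no entry in the promoter table. The genes least like it were RPL23AP82 (-0.964), EMC6 (-0.963) and ATF5 (-0.958).

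Among the other members, r with YEATS4 was 0.768 for RUVBL2, 0.747 for MRGBP and 0.719 for RUVBL1, and it was negative for ING3 (-0.672), KAT5 (-0.725), EP400 (-0.727), TRRAP (-0.769), DMAP1 (-0.821) and MORF4L1 (-0.872), over the same 18 libraries. PUDP and ANKRD26 are given for context because the study names them together with YEATS4 as targets of NRF1, so that their likeness to it is a description and no independent support. Their r with YEATS4 was 0.991 each. Their log2 fold changes between NRF1-DE7 and NRF1-FL under siNRF1 were -1.53 and -1.56, near that of YEATS4. Their promoter windows each have 3 matches to the NRF1 core. Of those in ANKRD26, the matches at -14 to -6 and -13 to -5 overlap on opposite strands.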

How the data were processed

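RNA of 18 libraries, 3 for each of 6 conditions, was analysed. The library kit keeps the strand. Reads were trimmed by the authors with cutadapt 1.18 and aligned with STAR 2.7.0f to hg38 and an earlier GENCODE release. The submitters' processing notes name DESeq2 1.46.0 as well. The deposited values are estimated counts for each gene, without normalization, and 91.9% of them are whole. The sources used here name neither the counting tool nor its strand setting. Of 36 columns of library values 18 were used, and the other 18 match no sample of these conditions. Counts were rounded, and a filter (filterByExpr, minimum count 10) left 17962 genes. Library totals ran from 31.2 to 44.8 M.

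1 mean per condition was fitted to all 18 libraries with TMM scaling and tested with the quasi-likelihood F test of edgeR 4.0.16 (R 4.3.3, 12 residual degrees of freedom, common dispersion 0.00113). P-values were adjusted by Benjamini-Hochberg across all genes tested. Tests are two-sided, and SE is the absolute log2 fold change over the square root of F. The step was tested on simulated counts. Alternatives tried were upper-quartile and RLE scaling, no low-count filter, at least 10 counts in every library, DESeq2 1.42.0, a replicate block, a fit of only the compared libraries, fold thresholds of 0 and 1, and the omission of each library in turn. Same-numbered libraries deviated from their group means with correlations from -0.180 to 0.157 over 45 pairs, so the numbers were not taken to pair the samples.

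Named are the 10 members, NRF1, PUDP and ANKRD26, up to 4 called genes of each list for NRF1-DE7 against NRF1-FL under siNRF1, and the 6 genes most and 3 least like YEATS4 by Pearson correlation of log2 CPM with a prior count of 2. Members and lists were chosen with earlier results of these data known. Gene positions come from GENCODE 44, promoters and their motifs from RefSeq (GRCh38.p14), and the siRNA sequence from the study's list of oligonucleotides. Python 3.11.15 with pandas 2.3.3 and matplotlib 3.10.9 was used.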

Additional observations from a re-analysis of the deposited data

Results flagged for a closer look

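The response of YEATS4 to the siRNA differed between the NRF1-DE7 and NRF1-FL lines by -1.30 on the log2 scale (SE 0.0617, edgeR adjusted p = 7.54e-13). Its level was lower in 3 of 3 siNRF1+NRF1-DE7 libraries than in any siNRF1+NRF1-FL library. The response of MRGBP differed between the same lines by -0.61 (SE 0.0589, edgeR adjusted p = 1.01e-07), and its level was likewise lower in 3 of 3 libraries. The response of YEATS4 in the NRF1-FL line differed from that without a transgene by 1.36 (SE 0.0622, edgeR adjusted p = 5.02e-13). Its level was higher in 3 of 3 siNRF1+NRF1-FL libraries than in any siNRF1 library. The differences of responses were tested as interaction terms. An effect of the isoform on YEATS4 was known from the study beforehand, so its p-values are no independent support. A response has no value for a single library, so the library counts describe levels under siNRF1 only.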

How the results depend on the processing

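Under all 7 alternatives of scaling, filter, tool, block and library choice, and without each library in turn, no member called above changed direction or lost its call. The YEATS4 difference between NRF1-DE7 and NRF1-FL under siNRF1 ran from -1.41 to -1.38 over these alternatives and from -1.43 to -1.37 without single libraries, and its interaction from -1.34 to -1.27 without single libraries. Replicate numbers did not pair the samples (6 of 45 same-numbered pairs correlated above 0.1, and in 15 of 45 a library was closest to its own number). A replicate block gave -1.41 for YEATS4 between the isoforms and changed no call of a member. It moved the count of all genes in the siRNA response of the NRF1-DE7 line minus no transgene to 45, with 28 without it, and without a low-count filter that count was 172.

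Counts of members called moved as follows. For siNRF1 against siNT without a transgene, 2 were called with upper-quartile scaling or at least 10 counts in every library (TRRAP at 0.57 and 0.50) and 1 to 2 without single libraries. In the NRF1-DE7 line 2 were called with upper-quartile scaling (ING3 at 0.57) and 1 to 2 without single libraries. For the siRNA response of the NRF1-FL line minus no transgene 1 to 2 were called without single libraries. With no fold threshold 10 members were called for siNRF1 against siNT in each of the 3 comparisons, 5 between the isoforms under siNRF1 and 1 with siNT, 4 each for NRF1-FL and NRF1-DE7 against siNRF1 alone, 1 and 2 for NRF1-FL and NRF1-DE7 against siNT alone, and 2 for the siRNA response of the NRF1-FL line minus no transgene. With a log2 fold threshold of 1 only YEATS4 was called, so 1 member, between the isoforms under siNRF1, for the interaction and for NRF1-FL against siNRF1 alone.

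Counts of all genes with a fold threshold of 1, and with none, were 2305 and 12239 for siNRF1 against siNT in the NRF1-DE7 line, 1728 and 11414 in the NRF1-FL line and 1898 and 11583 without a transgene. They were 395 and 5691 between the isoforms under siNRF1, 148 and 2793 under siNT, 122 and 1292 for the interaction, 319 and 4029 for NRF1-FL and 137 and 3847 for NRF1-DE7 against siNRF1 alone, and 97 and 1462 for NRF1-FL and 117 and 2930 for NRF1-DE7 against siNT alone. For the siRNA response minus that without a transgene they were 107 and 957 in the NRF1-FL line and 6 and 365 in the NRF1-DE7 line, where leaving out single libraries gave 12 to 45. The share of higher calls for siNRF1 against siNT was 48.7% in the NRF1-DE7 line, 48.4% with NRF1-FL and 47.4% without a transgene. Upper-quartile scaling gave 59.5%, 59.6% and 57.7% in the same order. Without a low-count filter it was 24.5% for the interaction (14.2% with it) and 79.5% for the siRNA response of the NRF1-FL line minus no transgene (92.1% with it). The cause of these shifts was not tested.

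These limits hold for all values above. Each condition has 3 libraries, each isoform is carried by 1 line, and NRF1 RNA differed between the lines. Protein levels were not analysed here.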
